A study of Mus musculus with 34 samples.

Results

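The 9 genes described here belong to the handling of xenobiotics, the drugs, plant compounds and pollutants that reach the gut wall from food. They were Ahr, Cyp1a1, Cyp3a11, Cyp3a13, Cyp3a25, Ces2e, Abcb1a, Abcc2 and Abcg2, given as a named list, and they make up 9 of the 21938 genes that GENCODE M21 (mm10) lists as protein-coding. Each was measured as the mean H3K4me3 signal within 1000 bp of its 5′ end, the outermost annotated start of the gene. H3K4me3 is a histone mark at the promoters of genes in use or ready for use.

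The mark was profiled by CUT&RUN, in which an antibody tethers a nuclease to chromatin so that the cut fragments can be sequenced. The study used 2 wild-type mice (C57BL/6J) and 2 ApcMin/+ mice (C57BL/6J-ApcMin), and there were 2 libraries of each genotype. That each library came from a different mouse is not stated. The labels give an age of 5 weeks, whereas the methods give 1 week more. Cells were scraped from villi of small intestine that looked normal, not from tumours, and the same anti-H3K4me3 antibody from Millipore was used in all 4 libraries. ApcMin/+ mice are heterozygous for a mutant Apc allele in every cell of the body and develop intestinal adenomas, so the model does not separate an effect in the epithelium from one elsewhere in the animal. In such bulk samples fewer cells carrying the mark and less of the mark per cell cannot be told apart.

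Xenobiotic handling is usually divided into sensing, conversion and export. Ahr, a ligand-activated transcription factor, binds DNA with Arnt and switches on Cyp1a1, while the nuclear receptors Pxr (gene Nr1i2) and Car (gene Nr1i3), each paired with Rxr, act on Cyp3a and Cyp2b genes and on transporters. The cytochromes P450 oxidize compounds, carboxylesterases such as Ces2e cleave esters, and the ATP-driven pumps of the Abcb, Abcc and Abcg families return compounds or their conjugates to the gut lumen, which together makes the enterocyte the first barrier to an oral drug.

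The 4 libraries held 1430000 and 4790000 tags in the wild-type replicates and 3700000 and 5470000 in the ApcMin/+ replicates, and enriched regions took 43.3% of the signal in ApcMin/+ replicate 1 against 11.9% to 22.6% in the other 3 libraries. The median promoter tested was at 13.2 in ApcMin/+ replicate 1 and at 3.06 to 4.53 elsewhere, in units of signal scaled to 10000000 tags per library. Of 14 enterocyte marker promoters 12 had a mean signal of 2 or more, Fabp2 only through ApcMin/+ (mean 1.54 in wild type and 6.28 in ApcMin/+). Of all promoters 45.3% reached that level. It was reached by 0 of 7 goblet, Paneth and enteroendocrine, 0 of 10 immune and 0 of 9 mesenchymal and endothelial markers. Spdef (1.97) and Muc2 (1.85), both in the goblet, Paneth and enteroendocrine list, were just under it. Of 8 hepatocyte markers 1 reached that level, namely Apoh, while Alb was at 0.0719 to 1.02.

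The windows, in mm10 and centred on the gene 5′ end, so that they hold sequence upstream of the gene and its first exon, were as follows. For the sensor and the P450s they were Ahr (ENSMUSG00000019256.17) chr12:35534038-35536037, Cyp1a1 (ENSMUSG00000032315.6) chr9:57686928-57688927, Cyp3a11 (ENSMUSG00000056035.8) chr5:145878964-145880963, Cyp3a13 (ENSMUSG00000029727.7) chr5:137920619-137922618 and Cyp3a25 (ENSMUSG00000029630.15) chr5:146008618-146010617. For the esterase and the pumps they were Ces2e (ENSMUSG00000031886.14) chr8:104925260-104927259, Abcb1a (ENSMUSG00000040584.8) chr5:8659077-8661076, Abcc2 (ENSMUSG00000025194.5) chr19:43781192-43783191 and Abcg2 (ENSMUSG00000029802.13) chr6:58583523-58585522. Ahr, Cyp3a11, Cyp3a13 and Cyp3a25 lie on the minus strand and the others on the plus strand.

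The promoters on which the results turn are shown first, as RefSeq gives them for GRCm38.p6, the assembly also called mm10. Each runs 5′ to 3′ on the strand of the gene from 250 bases upstream of the RefSeq start to 50 bases from it, and capitals mark matches, on either strand, to the motifs searched. The motif of Ahr with Arnt was searched as GCGTG and as the longer TNGCGTG, which contains it. Sites of nuclear receptors were searched as AGGTCA and, separately, as the variant AGTTCA. For Hnf4 the letters were CAAAGTCCA. Cdx was searched as TTTATG. For Hnf1 they were GTTAAT. The TATA box was searched as TATAAA. The 3 Cyp3a promoters are set side by side because their mean H3K4me3 did not go the same way between genotypes. No difference between genotypes was called at any of them in the main comparison. Those of Abcg2 and Cyp1a1 are shown because the gene 5′ end was not where the signal, or the RefSeq start, lay.
Cyp3a11, chr5:145879805-145880104, minus strand: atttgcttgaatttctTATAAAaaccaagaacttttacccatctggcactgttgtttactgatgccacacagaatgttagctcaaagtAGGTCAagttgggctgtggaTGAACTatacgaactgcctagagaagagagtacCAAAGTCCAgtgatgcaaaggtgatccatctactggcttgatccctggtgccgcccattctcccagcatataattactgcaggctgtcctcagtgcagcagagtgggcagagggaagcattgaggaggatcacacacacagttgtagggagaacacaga
Cyp3a25, chr5:146009569-146009868, minus strand: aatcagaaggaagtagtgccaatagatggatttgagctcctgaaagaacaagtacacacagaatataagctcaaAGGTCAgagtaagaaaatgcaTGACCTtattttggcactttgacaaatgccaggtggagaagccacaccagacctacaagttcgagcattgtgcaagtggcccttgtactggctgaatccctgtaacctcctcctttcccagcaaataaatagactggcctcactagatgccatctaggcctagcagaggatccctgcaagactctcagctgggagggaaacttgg
Cyp3a13, chr5:137921570-137921869, minus strand: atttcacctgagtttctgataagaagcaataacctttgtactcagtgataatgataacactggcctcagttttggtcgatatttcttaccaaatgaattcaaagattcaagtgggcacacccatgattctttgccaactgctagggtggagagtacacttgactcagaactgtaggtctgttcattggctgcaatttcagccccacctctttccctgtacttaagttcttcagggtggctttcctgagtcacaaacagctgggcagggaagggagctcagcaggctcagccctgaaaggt
Abcg2, chr6:58640296-58640595, plus strand: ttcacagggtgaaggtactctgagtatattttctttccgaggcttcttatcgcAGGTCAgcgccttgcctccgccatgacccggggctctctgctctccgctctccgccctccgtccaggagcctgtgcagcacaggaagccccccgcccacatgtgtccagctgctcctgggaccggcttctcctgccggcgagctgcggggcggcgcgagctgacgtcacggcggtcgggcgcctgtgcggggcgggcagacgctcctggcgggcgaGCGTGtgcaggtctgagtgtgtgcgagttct
Cyp1a1, chr9:57697363-57697662, plus strand: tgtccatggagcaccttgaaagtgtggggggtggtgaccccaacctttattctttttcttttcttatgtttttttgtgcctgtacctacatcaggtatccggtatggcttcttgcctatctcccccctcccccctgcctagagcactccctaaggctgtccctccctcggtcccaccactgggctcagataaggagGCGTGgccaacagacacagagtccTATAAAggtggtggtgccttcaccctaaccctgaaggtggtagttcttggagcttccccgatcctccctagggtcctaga

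In the Cyp3a11 promoter AGGTCA lay 162 bp upstream of the RefSeq start, AGTTCA on the opposite strand 142 bp upstream and CAAAGTCCA 109 bp upstream. Of 32817 RefSeq promoters of the same length, 16.3% held AGGTCA, 14.0% AGTTCA and 0.475% CAAAGTCCA. The Cyp3a25 promoter held AGGTCA on both strands, 176 and 155 bp upstream, and no other motif searched, whereas none of the motifs occurred in these 300 bp of Cyp3a13 or of Ces2e. In Abcc2 a single AGGTCA lay 49 bp upstream. GCGTG, which 32.4% of all promoters held, lay 54 bp upstream of the start of Cyp1a1 and 19 bp downstream of that of Abcg2. TATAAA, held by 13.6% of all promoters, lay 30 bp upstream of the start of Cyp1a1 and 234 bp upstream of that of Cyp3a11. TNGCGTG (5.06% of all promoters), TTTATG (11.9%) and GTTAAT (7.10%) had no match in the members' promoters. A match is a run of letters and not a site in use, and a motif without a match is only missing from this window.

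The Abcg2 start with signal stood apart in base composition. Its 300 bp were 67.0% G or C with 28 CpG dinucleotides and a CpG ratio, observed over expected, of 0.832, above 81.7% of the promoters of the table. The other members shown or described were CpG-poor. From Cyp3a25 to Cyp1a1 their CpG ratio ran from 0.0612 to 0.186, against a median of 0.383 over all promoters. RefSeq promoters were matched for 8 of the 9 members, all but Ahr.

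**Figure D1:**
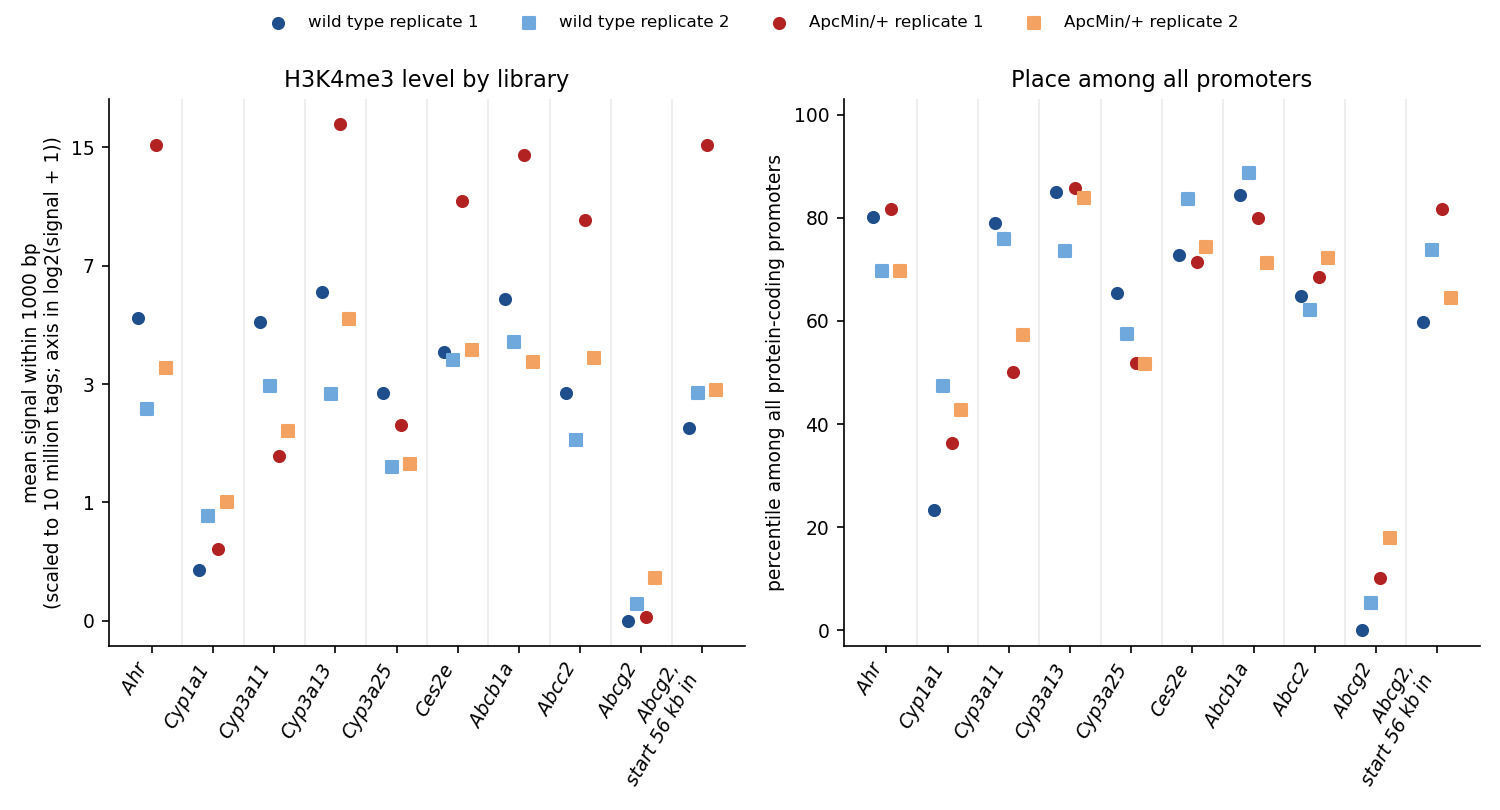
H3K4me3 at the 9 members in each of the 4 libraries, with the start of Abcg2 56059 bp inside the gene as a last column. Left, mean signal within 1000 bp on an axis of log2(signal + 1), and right, the percentile of the same value among all protein-coding promoters of that library. ApcMin/+ replicate 1 is highest at 5 of the 6 tested members, Cyp3a11 being the exception, and the percentiles of Cyp3a11 are lower in both ApcMin/+ libraries than in both wild-type libraries.

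Of the 9 members, 6 averaged 2 or more in signal and entered the test, as did 45.3% of all promoters. They were Ahr, Cyp3a11, Cyp3a13, Ces2e, Abcb1a and Abcc2. Cyp3a25, at 1.98, was just under that limit, and Cyp1a1 and Abcg2 were far below it at their gene 5′ ends. The order of the mean levels ran from Cyp3a13 (7.70) over Abcb1a (6.89), Ahr (6.48), Ces2e (5.50), Abcc2 (4.45), Cyp3a11 (2.84), Cyp3a25 (1.98) and Cyp1a1 (0.683) to Abcg2 (0.104). The ranges of neighbours in this order overlapped over the 4 libraries down to Cyp3a25, while those of Cyp3a25, Cyp1a1 and Abcg2 did not.

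Among the sensors, Ahr had a signal of 4.88 and 2.46 in wild-type replicates 1 and 2 and of 15.2 and 3.39 in ApcMin/+ replicates 1 and 2, which rested on 14, 24, 112 and 37 fragments. The value of ApcMin/+ replicate 2 lay between both wild-type values, so the groups overlapped. In rank Ahr stood at the 80.2, 69.7, 81.7 and 69.6 percentile of all promoters, each ApcMin/+ library close to the wild-type library of the same number. The Ahr signal lay downstream of the 5′ end. Its highest 100 bp began 700 bp into the gene, and the 1000 bp downstream held 9.22, 4.09, 28.5 and 5.76 against 0.546, 0.836, 1.84 and 1.02 upstream.

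Cyp1a1, the classical Ahr target, had no promoter signal to speak of. At the gene 5′ end it measured 0.349, 0.850, 0.527 and 1.00, on 1, 8, 4 and 11 fragments, which is 1.30 to 3.53 times the background of each library. At the RefSeq start 9685 bp further into the gene, which carries the GCGTG shown above, it measured 1.06, 0.783, 0.566 and 1.11, and the groups overlapped at both sites. The exact permutation test gave p = 0.667 and p = 1.00, a test that cannot reach 0.05 with 2 libraries against 2. Cyp1a2, whose 5′ end is the nearest at 4225 bp, was at 1.39, 0.234, 0.405 and 0.348.

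Cyp3a11, a principal drug-oxidizing P450 of the mouse, ran against all other tested members. It measured 4.75 and 2.95 in wild type and 1.62 and 2.04 in the ApcMin/+ replicates, on 14, 28, 12 and 22 fragments. Both ApcMin/+ libraries were thus below both wild-type libraries, also in ApcMin/+ replicate 1, where the other 5 tested members had their highest value. The exact Poisson 95% intervals, which cover counting error only, ran from 2.68 to 8.21 and from 1.94 to 4.22 in wild type and from 0.838 to 2.83 and from 1.26 to 3.04 in ApcMin/+, so each wild-type interval overlapped each ApcMin/+ interval. In rank Cyp3a11 went from the 79.0 and 75.9 percentile in wild type to the 50.2 and 57.2 percentile in ApcMin/+.

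Cyp3a13, a further P450 of this family outside the cluster of Cyp3a11, had 5.85 and 2.78 in wild type and 17.3 and 4.87 in ApcMin/+. Here ApcMin/+ replicate 1 was highest and the groups overlapped. Cyp3a25, which lies in the same gene cluster as Cyp3a11, had 2.79 and 1.47 against 2.15 and 1.50, on 8 to 16 fragments in each library, also with overlap (exact permutation p = 1.00). Its percentile was 65.3 and 57.6 in wild type and 51.9 and 51.6 in ApcMin/+. Ces2e, an intestinal carboxylesterase, had 3.84 and 3.59 against 10.7 and 3.87, so that both ApcMin/+ values were above both wild-type values, in replicate 2 by very little.

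Of the pumps, Abcb1a (P-glycoprotein) had 5.59 and 4.12 in wild type and 14.3 and 3.56 in ApcMin/+. Its ApcMin/+ replicates held the highest and the lowest of the 4 values. Abcc2, which exports glucuronide and glutathione conjugates, had 2.79 and 1.88 against 9.47 and 3.65, both ApcMin/+ values being above both wild-type values. Abcg2, the breast cancer resistance protein, had 0, 0.105, 0.0249 and 0.287 at its gene 5′ end, on at most 3 fragments, and at this depth 3 fragments amount to a signal of 1.05 in wild-type replicate 1 and of 0.274 to 0.405 in the other libraries, so the signal there was at or below about that floor in every library.

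**Figure D2:**
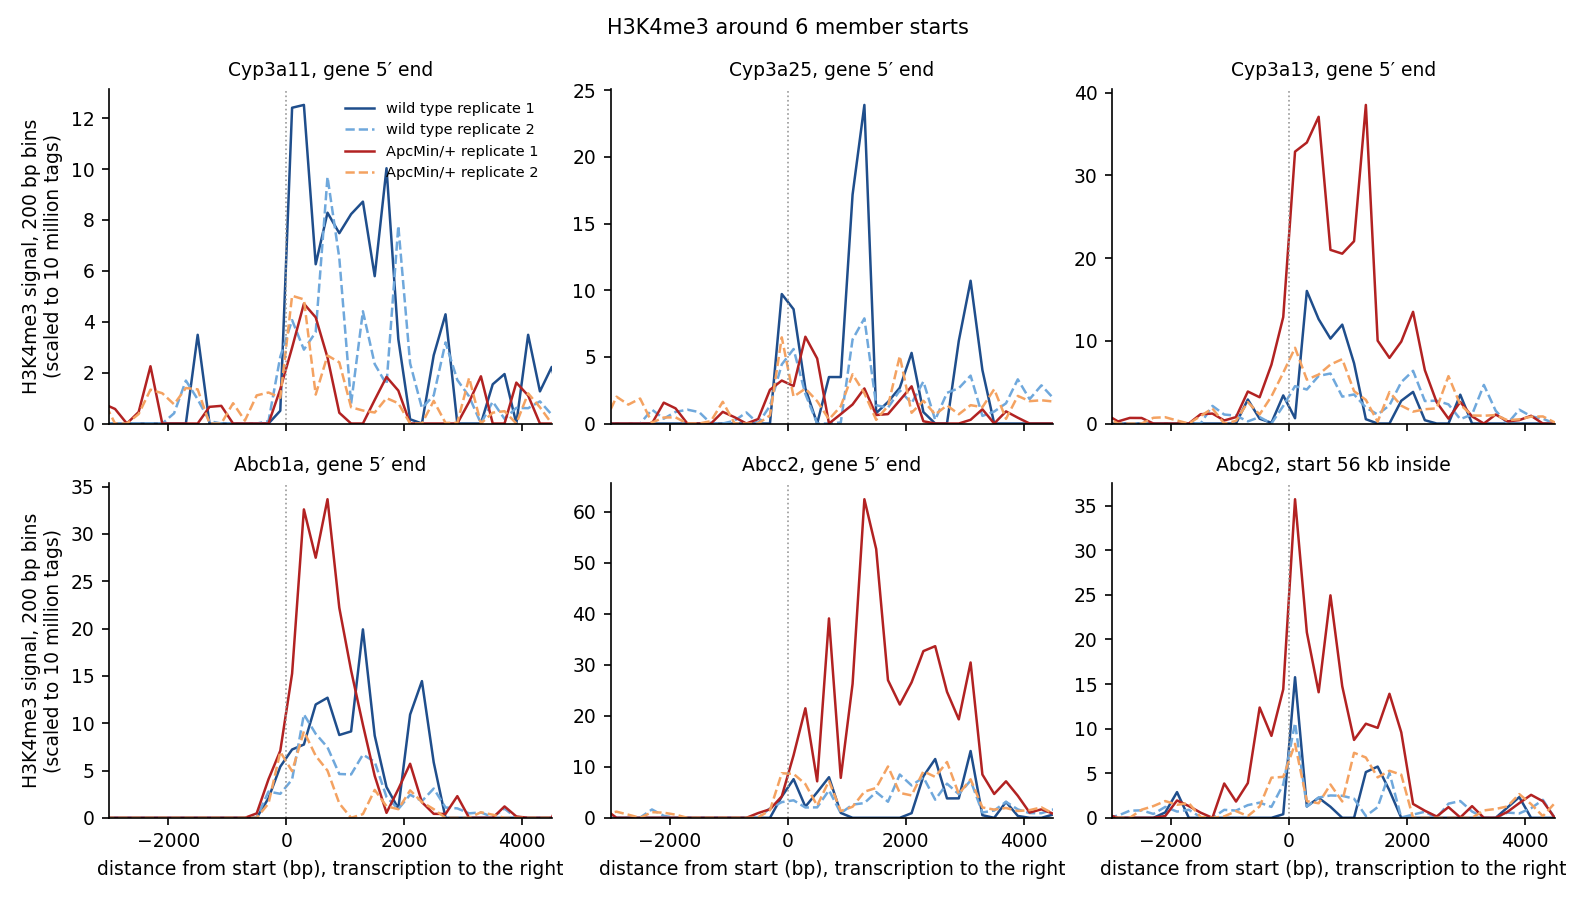
H3K4me3 signal in bins of 200 bp around 6 member starts, with the distance from the start in bp along the x axis, transcription to the right and 1 line per library; the y axes differ. At Cyp3a11 and Cyp3a25 both wild-type lines reach higher than both ApcMin/+ lines, and at the other 4 starts ApcMin/+ replicate 1 reaches highest. At Abcc2 the mean of the 4 libraries lies mainly between 1000 and 3399 bp downstream.

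The gene 5′ end of Abcg2 is 1 of several annotated starts, and the signal lay at another. At chr6:58639582-58641581, around a protein-coding transcript start 56059 bp inside the gene, the 4 libraries had 2.09, 2.81, 15.2 and 2.87 on 6, 27, 112 and 31 fragments. Both ApcMin/+ libraries were above both wild-type libraries, as at 38.0% of promoters taken at their strongest annotated start. Here ApcMin/+ replicate 2 was barely above wild-type replicate 2. With each gene taken at its strongest annotated start, the log2 difference of Abcg2 was 1.21 (limma, SE 0.90, adjusted p = 0.682). The CpG-rich promoter printed above belongs to this start. Abcb1a showed the opposite arrangement. Its RefSeq start, at -92986 bp from the GENCODE 5′ end, had 0, 0.348, 0 and 0.00967, and the signal was at the GENCODE 5′ end.

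The shape of the mark differed between members. A stretch at or above 5 times the genome-wide mean, on the mean of the 4 tracks, covered 2400 bp at Abcc2, 2000 bp at Abcb1a, 1900 bp at Cyp3a13, 1700 bp at Ces2e, 1100 bp at Cyp3a11, 700 bp at Ahr, 400 bp at Cyp3a25, 100 bp at Cyp1a1 and none at the gene 5′ end of Abcg2. At Abcc2 this stretch began 1000 bp downstream of the 5′ end and ended at 3399 bp, so the window of 1000 bp missed its centre. At Abcg2 it was 2700 bp around the inner start. These lengths come from the mean of the 4 tracks, in which ApcMin/+ replicate 1 weighs most where it is high. In the highest 100 bp at Abcc2, which began 1200 bp downstream, the libraries held 0 and 2.23 in wild type and 72.4 and 5.09 in ApcMin/+. Cyp3a11 had next to nothing upstream of its start in any library (0.101, 0.545, 0.270 and 0.850 over 1000 bp) and 9.39 and 5.35 in wild type against 2.98 and 3.22 in ApcMin/+ over the 1000 bp downstream. In its highest 100 bp, which began 100 bp downstream, it held 19.7 and 4.60 in wild type against 5.56 and 8.27 in ApcMin/+, with both ApcMin/+ libraries above wild-type replicate 2. At Cyp3a25 the highest 100 bp began 1200 bp downstream and held 27.6 and 8.54 in wild type against 2.09 and 2.30 in ApcMin/+.

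To ask whether the genotypes differed at these promoters, log2(signal + 1) was compared over the 9931 promoters averaging 2 or more, using limma with a trend and Benjamini-Hochberg adjustment. No member passed the adjusted p threshold of 0.05, as did 0% of all promoters tested, while 131 promoters had an unadjusted p under 0.05. The median log2 difference between ApcMin/+ and wild type over all of them was 0.85, and 99.2% were higher in the ApcMin/+ mean, so a member has to be read against that shift. The mean signal in wild type and ApcMin/+ was 3.85 ± 1.27 and 1.83 ± 0.292 (SD, n = 2 each) for Cyp3a11, 3.67 ± 1.71 and 9.29 ± 8.34 for Ahr, 4.31 ± 2.17 and 11.1 ± 8.80 for Cyp3a13, 3.71 ± 0.172 and 7.28 ± 4.82 for Ces2e, 4.86 ± 1.03 and 8.92 ± 7.58 for Abcb1a and 2.33 ± 0.644 and 6.56 ± 4.11 for Abcc2. The log2 differences were 1.08 for Abcc2 (SE 0.85), 1.03 for Cyp3a13 (SE 1.10), 0.90 for Ahr (SE 1.00), 0.68 for Ces2e (SE 0.98) and 0.52 for Abcb1a (SE 1.08). Their adjusted p was 0.683 to 0.699 in limma. The difference of Cyp3a11 was -0.75 (SE 0.70, adjusted p = 0.683). The SE rests on the spread that limma found over all promoters of like level rather than on 2 libraries of one gene. Without ApcMin/+ replicate 2, the ApcMin/+ group being then 1 library that is assumed to vary like the wild type, 6473 promoters passed as higher and 4 as lower, among them 4 of the 6 members as higher, namely Ahr, Cyp3a13, Ces2e and Abcc2.

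The members were also read by whether the libraries of the groups overlapped. The ApcMin/+ pair exceeded the wild-type pair at 38.5% of the promoters tested, and at 2 of the 6 members (Ces2e and Abcc2). Both were below at 0.161% of them (16), Cyp3a11 included. That share is set in large part by the limit on low signal, which Cyp3a11 reached only through its wild-type mean. Without the limit both ApcMin/+ libraries were below at 7.19% of all 21938 promoters (1578), and among the promoters under it at 13%, so the small share is no measure of how unusual Cyp3a11 is. In a window of 500 bp Cyp3a11 had 5.58 and 2.10 in wild type and 2.44 and 2.69 in ApcMin/+, the groups overlapped, and its log2 difference was -0.34.

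**Figure D3:**
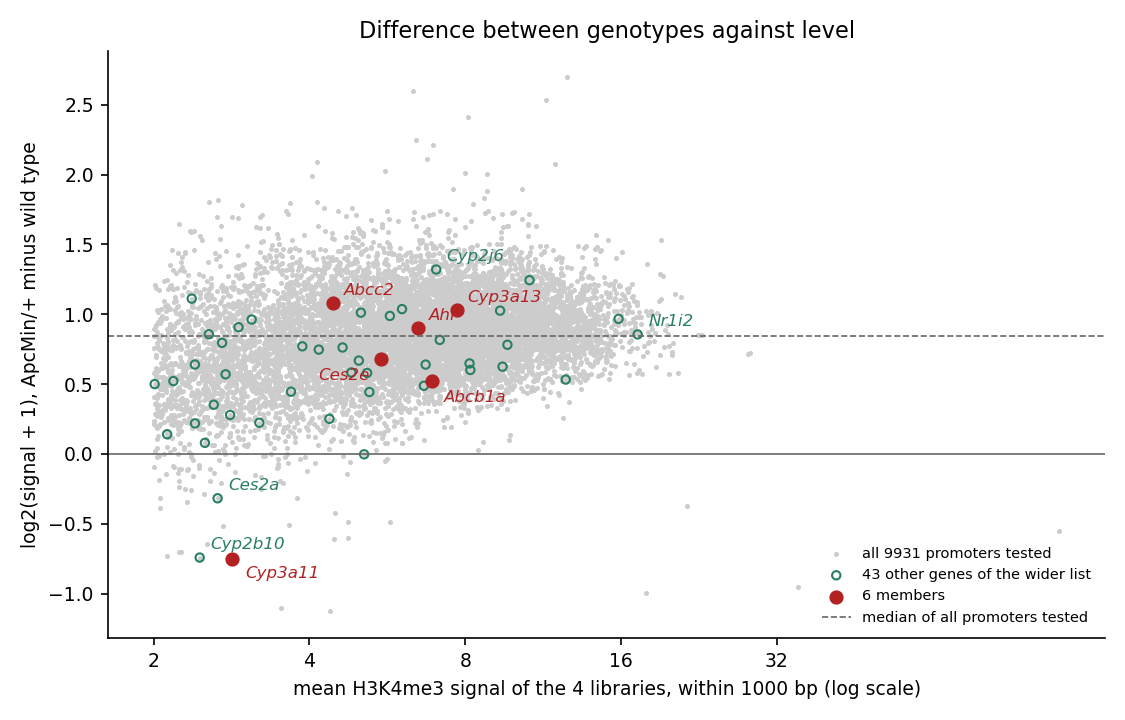
Log2(signal + 1) in ApcMin/+ minus wild type against the mean signal of the 4 libraries, for 9931 promoters (grey), 43 other genes of the wider xenobiotic list (open circles) and 6 members (filled). The median of all promoters is 0.85 (dashed line); Cyp3a11 at -0.75 and Cyp2b10 at -0.74 lie below 0.

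When each library was centred on its own median promoter, 0.121% of all promoters (12) passed in limma and none of the members did. The centred differences were 0.23 for Abcc2, 0.17 for Cyp3a13, 0.05 for Ahr, -0.17 for Ces2e and -0.33 for Abcb1a, with SE of 0.28 to 0.35. For Cyp3a11 the centred difference was -1.61 (SE 0.46), from 0.05 and -0.04 in wild type to -2.43 and -0.77 in ApcMin/+, with an unadjusted p of 0.000432 and an adjusted p of 0.215 in limma. Most of that size came from ApcMin/+ replicate 1. Without that library the centred difference was -0.78, and without ApcMin/+ replicate 2 it was -2.44. Centred without the limit on low signal, the difference of Cyp3a11 was -0.96 (SE 0.62, limma adjusted p = 0.860). That alternative was added after seeing the data. The immune markers, all under the limit, had centred differences from -1.47 (Cd79a) to 0.52 (Cd52), so promoters of low signal can also fall on centring. The part of low signal in the Cyp3a11 value was not tested. Centred groups did not overlap upwards at 13.1% of promoters, Abcc2 among them, and downwards at 14.3%, Cyp3a11 and Abcb1a among them. These counts of 1 and 2 of 6 members are no result about the members beside those shares.

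**Figure D4:**
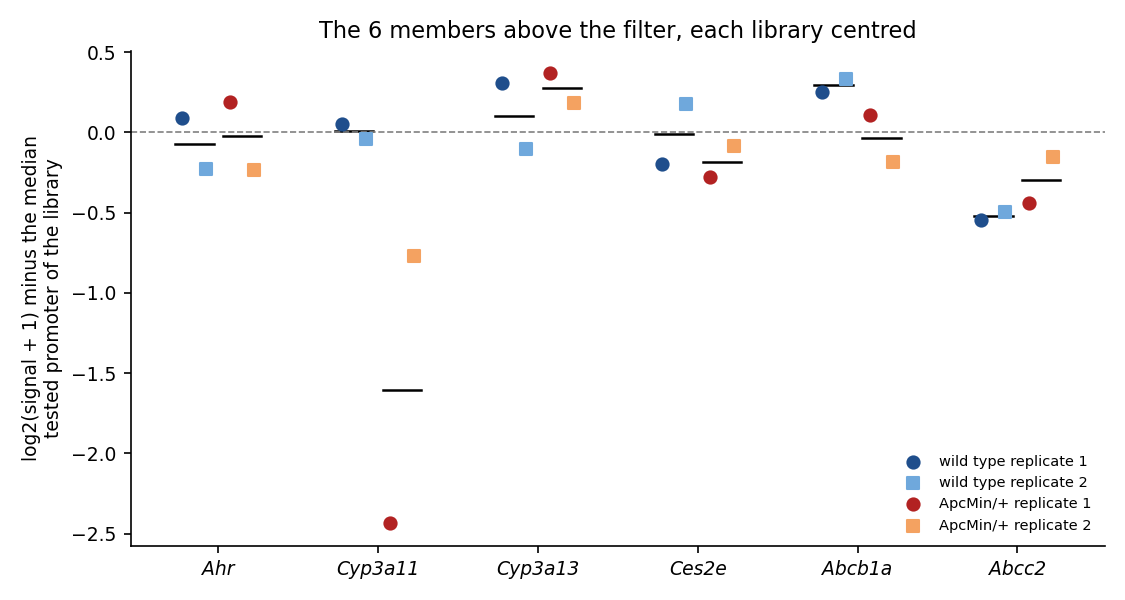
Log2(signal + 1) of the 6 tested members minus the median tested promoter of the same library; points are libraries and black bars the mean of 2. The points of 5 members lie within 0.6 of the median promoter in every library, and those of Cyp3a11 at -2.43 and -0.77 in the ApcMin/+ libraries.

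In a wider window the 2 Cyp3a genes of the cluster were lower in ApcMin/+ and Abcc2 was higher. Within 2000 bp of the 5′ end Cyp3a11 had 4.35 and 2.47 in wild type against 1.08 and 1.36 in ApcMin/+, and Cyp3a25 had 3.70 and 1.84 against 1.53 and 1.50. Both ApcMin/+ libraries were below both wild-type libraries at either gene, as at 0.156% of the 8964 promoters that reached the limit in this window. Both genes reached it only through wild type, so that share is set by the limit as above. Their log2 differences were -0.96 and -0.54, where the median of all promoters was 0.80, and that of Abcb1a was 0.16. Abcc2 had 1.39 and 2.05 in wild type against 14.3 and 3.26 in ApcMin/+. Its log2 difference was 1.58 (SE 0.93), it reached the limit only through ApcMin/+, and its groups did not overlap, as at 40.1% of promoters. None of these 3 genes passed in limma (adjusted p = 0.651 for each).

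Over the whole enriched region at Cyp3a11, chr5:145878001-145880000, the signal was 8.27 and 4.33 in wild type and 1.90 and 1.97 in ApcMin/+, on 24, 41, 14 and 22 fragments. Over that at Cyp3a25, chr5:146006301-146009900, it was 5.62 and 2.57 against 1.71 and 1.93. At these 2 regions the ApcMin/+ libraries were below the wild-type libraries, as in 0.921% of the 6082 regions of at least 2000 bp, a length chosen after the regions had been seen. The regions were called on the mean of the 4 tracks, so this share too depends on a limit that a region low in ApcMin/+ can miss. The region at Abcc2 spanned 4100 bp, reached 23.1 in ApcMin/+ replicate 1 and 5.57 in replicate 2, and was at 3.57 and 3.98 in wild type. The share of regions with both ApcMin/+ libraries above was not counted, and ApcMin/+ replicate 1 weighs most in the mean where it is high. Abcb1a differed from Abcc2 in that its region had 9.11 and 4.82 in wild type against 13.0 and 3.29 in ApcMin/+, with overlap.

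Close copies of the Cyp3a members and of Abcb1a showed little signal in these tracks, from which reads of low mapping quality had been removed. Repeated sequence was not counted in the copies' own windows, so the part of lost reads in their low signal was not tested. Of the 6 other Cyp3a genes on the wider list, namely Cyp3a16, Cyp3a41a, Cyp3a41b, Cyp3a44, Cyp3a57 and Cyp3a59, none had a mean signal above 0.446, and the nearest 5′ end to Cyp3a11, that of Cyp3a44 at 74090 bp, was at 0, 0.452, 0.211 and 0.565. Short reads can be shared between copies, so each word of 25 bases was searched in the whole genome. The study's documents give this trimmed read length and also a shorter one, for which repeats were not counted. In the Cyp3a11 window 9.21% of words occurred again, 4.25% within 1 Mb, and in that of Cyp3a13 10.3%. The share was 44.0% for Cyp3a25, with 40.3% within 1 Mb, and 59.2% at the gene 5′ end of Abcg2, and the part of repeated sequence in the low signal there was not tested. The other members were at 0.354% (Ahr), 4.55% (Ces2e), 11.3% (Cyp1a1), 16.1% (Abcc2) and 17.9% (Abcb1a), and the inner start of Abcg2 at 9.01%. Abcb1b, the second P-glycoprotein gene, was at 0.349, 1.14, 1.35 and 1.46.

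Among the Ces2 genes the level was uneven. Ces2c (mean 6.04) was the highest, with 3.56 and 2.80 in wild type against 13.9 and 3.89 in ApcMin/+, followed by Ces2e and by Ces2a with 3.75 and 2.41 against 2.50 and 1.97. The centred difference was 0.18 for Ces2c and -1.17 for Ces2a, neither past the threshold (limma, adjusted p = 1.00 for both). Ces2b was lower in both ApcMin/+ libraries, at 1.74 and 0.917 against 0.135 and 0.717, but under the limit on low signal. Ces2f, Ces2g and Ces2h had means of 0.601, 0.735 and 1.13.

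A list of 99 genes of xenobiotic sensing, oxidation, conjugation and transport, the 9 members included, placed them in their pathway. Of these, 49 averaged 2 or more and none passed in limma with or without centring. Their median log2 difference was 0.64, against 0.85 for all promoters. The ApcMin/+ pair exceeded the wild-type pair at 12 of the 49 and was below it at 2, Cyp3a11 and Cyp2b10, against 38.5% and 0.161% of all promoters tested. Some of the 49 reached the limit on low signal only through ApcMin/+. Among them were Mgst1, which was above (mean 1.05 in wild type and 3.69 in ApcMin/+), and Rxra (1.57 and 4.27), with overlap. The count above and the medians, here and by class, thus depend on the limit too. Centred, the balance turned, with 4 above and 17 below, against 13.1% and 14.3%. These shares depend on level. Of all promoters averaging 2 to under 5, 7.14% were above and 19.7% below, and of those at 5 or more 16.2% and 11.5%. Of the 49 genes 23 averaged 5 or more, against 6530 of all 9931 promoters. The part of level in the balance was not tested. Cyp2b10, the textbook target of Car, had 3.84 and 2.82 in wild type and 1.34 and 1.83 in ApcMin/+, a log2 difference of -0.74, and like Cyp3a11 it reached the limit on low signal only through its wild-type mean. Its centred difference was -1.60 (limma, adjusted p = 0.614). The receptors were not below in ApcMin/+, but only 0.161% of all promoters tested were, so this says little about them. Centred, the differences were 0.002 for Nr1i2 and -0.09 for Nr1i3, both with overlap. Nr1i2, with a mean of 17.2 the highest sensor, had 14.8 and 6.41 against 39.0 and 8.60 with overlap, and Nr1i3, chosen after its values were seen, had 3.14 and 2.48 against 10.2 and 2.69, also with overlap. Of the 50 genes of the list with a lower signal, 5 had both ApcMin/+ values below both wild-type values, where 13% of all promoters under the limit did.

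By class, the median log2 differences of the tested genes were 0.88 for 6 sensors and partners, 0.71 for 8 cytochromes, 0.68 for 3 carboxylesterases, 0.63 for 5 other enzymes of oxidation and hydrolysis, 0.64 for 15 conjugation enzymes and 0.55 for 12 transporters. Cyp2j6 had the largest positive centred difference among the cytochromes, 0.47, with 3.14 and 2.61 against 18.6 and 3.74. The highest promoters of the other classes were Mgst3 (mean 15.8, centred difference 0.11) among conjugation enzymes, the peptide and drug carrier Slc15a1 (mean 12.5, centred difference -0.32) among transporters and Aldh3a2 (mean 9.44, centred difference -0.23) among the other enzymes. Ephx2 (-0.27), Gstk1 (-0.63), Gstm3 (-0.63), Abcc4 (-0.71) and Slc47a1 (-0.57) were lower in both centred ApcMin/+ libraries and Ugt1a7c (0.13) was higher, none past the threshold in limma.

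Of the genes nearest to the members, some carried the mark and some did not. The nearest protein-coding 5′ ends to Ahr (Agr3), Cyp3a13 (Gjc3), Cyp3a25 (Cyp3a59), Ces2e (Ces2f) and Abcg2 (Vmn1r31) were between 21096 and 390582 bp away and had a signal of at most 1.22 in any library. Cox15, 29192 bp from Abcc2, had 4.53, 2.79, 14.6 and 4.11, and Rundc3b, 37125 bp from Abcb1a, had 3.14, 2.59, 7.62 and 2.72. The 3 promoters closest to the median of the 6 tested members over the 4 libraries were those of Ctnnal1 (distance 0.0384 on the log2 scale), Unc45a (0.0822) and Gapdh (0.0902).

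The cells behind the libraries were compared by their markers, summed within 1000 bp. Enterocyte markers summed to 74.3 and 45.2 in wild type and 222 and 59.6 in ApcMin/+. Hepatocyte markers, listed because most members are also liver genes, summed to 14.7 and 10.1 against 29.7 and 12.5, mostly from Apoh. Goblet, Paneth and enteroendocrine markers summed to 7.44 and 4.17 against 9.53 and 6.54, immune markers to 7.45 and 6.44 against 14.3 and 8.05, and mesenchymal and endothelial markers to 2.78 and 4.95 against 6.10 and 6.16. Genes of the proximal gut (Gata4, Slc40a1 and Lct) summed to 13.1 and 10.3 against 29.9 and 11.3, and genes of the distal gut (Slc10a2, Fabp6 and Osr2) to 11.5 and 6.80 against 27.6 and 6.49, nearly all of it from Osr2, these lists being written after the data had been seen. The sums are not centred and so carry the high level of ApcMin/+ replicate 1, and the part of cell composition in the Cyp3a11 values was not tested.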

How the data were processed

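H3K4me3 CUT&RUN tracks of 4 libraries, 2 of each genotype, were used. Per the methods, the authors trimmed paired-end reads, aligned them to mm10 with Bowtie2, removed duplicates with Picard and low mapping qualities with samtools, kept fragments of 150 to 500 bp and made tracks with HOMER. The deposited values are signal, that is fragment coverage scaled to 10000000 tags per library, with replicates kept apart, and the tag totals of the track headers served as depth. Counting intervals and floors (95% exact Poisson, 3 fragments) cover counting error only.

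From the tracks, mean signal within 1000 bp of each GENCODE M21 gene 5′ end was computed. Promoters averaging 2 or more were tested as log2(signal + 1) with limma 3.58.1 (R 4.3.3, trend, Benjamini-Hochberg over all promoters, threshold 0.05). The fit was also run on simulated promoters with known changes, where recovery of the changes was required of the centred fit only. Differences on this scale understate those of low promoters. Members under the limit were compared by a two-sided exact permutation test. Background was the mean signal outside enriched regions and more than 5000 bp from any start. Centring subtracted the median tested promoter of each library. Members and lists were chosen with earlier results of these data known, and alternatives added after seeing the data are named as such. Named genes were the members, their Cyp3a, Ces2 and Abcb1 paralogs, the nearest 5′ ends, the highest gene of each class, up to 2 genes per class and direction with the largest centred difference among those without overlap, and the 3 most alike promoters. Nothing in the labels ties the libraries to litters or days, so p-values measure the spread between these samples. RNA-seq, H3K9me3 and the 12-week libraries were not used here.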

Additional observations from a re-analysis of the deposited data

How the results depend on the processing

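No member was called in the main comparison. With the replicate block and centring 1 was, Cyp3a11 (-1.61, limma adjusted p = 0.0393), and leaving out 1 library gave 0 to 4. For the wider list these were 1 and 0 to 24. The labels tie same-numbered libraries by the number only, and deviations from the group means correlated at 0.20 over 9931 promoters. In both genotypes replicate 1 held fewer tags than replicate 2 and more of its signal in enriched regions. Whether same-numbered libraries were handled together was not tested. The replicate block alone changed no call of a member. Over 22 alternatives, some added after seeing the data, Cyp3a11 stayed negative, from -2.44 to -0.34, with limma adjusted p from 0.00115 to 1.00 and 2 under the threshold; leaving out 1 library gave -2.44 to -0.48. Ces2e turned negative when centred (-0.17), quantile normalized (-0.20), centred with the block (-0.17) and centred at the strongest start (-0.21), and Abcb1a likewise (-0.33, -0.40, -0.33 and -0.37). Leaving out 1 library and centring also turned Ahr (-0.11 and -0.17), Cyp3a13 (-0.031), Ces2e (-0.36, -0.078 and -0.27) and Abcb1a (-0.37, -0.29, -0.48 and -0.19), and without centring, omitting ApcMin/+ replicate 1 turned Ahr (-0.040) and Abcb1a (-0.35). Over all these, leaving out 1 library gave -0.48 to 1.40 for Abcb1a, 0.08 to 1.66 for Abcc2, -0.17 to 1.84 for Ahr, -0.36 to 1.31 for Ces2e and -0.03 to 1.85 for Cyp3a13. The level of Cyp3a25 was 3.29 within 500 bp. At 3 and 10 times the genome mean the stretch at Cyp1a1 was 300 and 0 bp, and at 10 times that at Cyp3a11 was 300 bp. Over all promoters, centring called 5 higher and 7 lower, quantile normalization 2 and 0, the block 0 and 1, the block with centring 5 and 10, and omitting ApcMin/+ replicate 2 6473 and 4. The causes were not tested. Wild-type replicate 1, with a median of 13.0 fragments per tested promoter, limits the depth.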

Other observations

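Ugt1a1, which conjugates bilirubin and many drugs to glucuronic acid, was chosen after its values were seen. It had a signal of 4.88 and 5.27 in wild type and of 4.25 and 6.00 in ApcMin/+, so that ApcMin/+ replicate 1 was its lowest library, as at Cyp3a11, and the groups overlapped. Its centred difference was -0.86 (limma, adjusted p = 0.947), from 0.09 and 0.63 in wild type to -1.43 and 0.44 in ApcMin/+. That difference rested on ApcMin/+ replicate 1, since replicate 2 lay between the wild-type values.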
